A study of Mus musculus with 6 samples.

Results

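Transcription and 3-prime end processing of histone mRNA in mouse RPE/choroid were described through 10 genes. They were chosen by role, as a list of symbols with no threshold on a value, and all 10 were found among the 33924 gene symbols of the deposited table. RPE/choroid is the pigmented epithelium that supports the photoreceptors, taken with the vessels and stroma under it. The tissue came from C57BL/6J mice, with no other allele or treatment in the labels, in 3 young and 3 aged libraries, each made from 2 eyes. The young mice are labelled 1 to 2 months old. The study gives an older range for them. For the aged mice the titles state 20 to 24 months, but a separate label states 22 to 24 months. The sex label is male throughout, while the study describes animals of both sexes. Ribosomal RNA was depleted, a stranded kit was used and poly(A) tails were not selected for, so that mRNAs without a tail could be read. Nothing states a shared litter or day.

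Most histone genes of the S phase carry no introns, and their mRNAs end in a conserved stem-loop in place of a poly(A) tail. Npat and Hinfp act at histone promoters, Slbp binds the stem-loop, and the U7 small nuclear ribonucleoprotein pairs with a purine-rich element downstream of it. Lsm10 and Lsm11 replace a pair of spliceosomal Sm proteins in the ring around U7 RNA, a core of Cpsf2, Cpsf3 and Sympk cleaves the transcript, and Eri1 trims the end. These roles order the results.

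The stem-loop that Slbp recognises is printed for 1 clustered histone gene of each family, that with the highest mean normalized count among genes with a match, with 5 flanking bases in lower case and the 6-base stem arms and 4-base loop in capitals. The bases were read 5′ to 3′ from GENCODE M21 transcripts of GRCm38, and show what the proteins described here act on. In the annotated transcripts used, 365 to 1861 bases follow the printed stem-loops.
Hist1h1c (chr13:23739507-23739532, plus strand): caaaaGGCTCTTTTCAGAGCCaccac
Hist3h2a (chr11:58955167-58955192, plus strand): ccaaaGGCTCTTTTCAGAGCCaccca
Hist1h2be (chr13:23585526-23585551, minus strand): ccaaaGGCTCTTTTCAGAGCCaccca
Hist1h3f (chr13:23544927-23544952, plus strand): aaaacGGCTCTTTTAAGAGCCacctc
Hist1h4c (chr13:23698084-23698109, minus strand): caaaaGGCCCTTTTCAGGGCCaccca
The search asked for the arms GGNNNT and ANNNCC, with pyrimidines at the N of the first arm, full pairing between arms and a loop that starts with T, on the transcript strand. A match was found in 46 of 69 clustered histone genes of the table, and in 73 of 21877 coding genes of the annotation (0.334%). The letters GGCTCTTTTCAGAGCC were shared by 26 of the 46.

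U7 RNA is printed because Lsm10 and Lsm11 assemble on it. The capitals mark bases 23 to 31 of 62, part of the element on which the U7 ring forms.
Rnu7 (chr6:124741225-124741286, minus strand): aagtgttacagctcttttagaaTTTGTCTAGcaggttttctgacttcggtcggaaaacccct

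The table gives each symbol a single line, without values of single libraries, so no spread over mice, no range and no depth of a single library can be given. The titles number separate mice and the study calls the replicates biologically independent. The values described are those of the authors' deposited DESeq2 comparison. Log2 fold changes are given as aged over young, and a gene is called where the deposited adjusted p is below 0.05. The sign of the table was read as young over aged because the split of its called genes then matches that of the study, and every direction depends on this reading. Of 18636 genes tested, 21.2% were called, 9.92% lower and 11.3% higher in aged tissue. In bulk tissue, fewer cells of a type and less RNA per cell cannot be told apart.

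In the deposited DESeq2 comparison, of the 10 genes 1 fell in aged RPE/choroid and 0 rose, against 21.2% called among all genes. At an unadjusted p under 0.05, 2 were lower and 2 higher, where 32.6% of all genes tested passed, 16.1% lower and 16.5% higher. By direction alone 4 were lower and 6 higher, with a median log2 fold change of 0.13. The median size of the change was 0.22 on the log2 scale, against 0.27 for all genes tested.

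**Figure D1:**
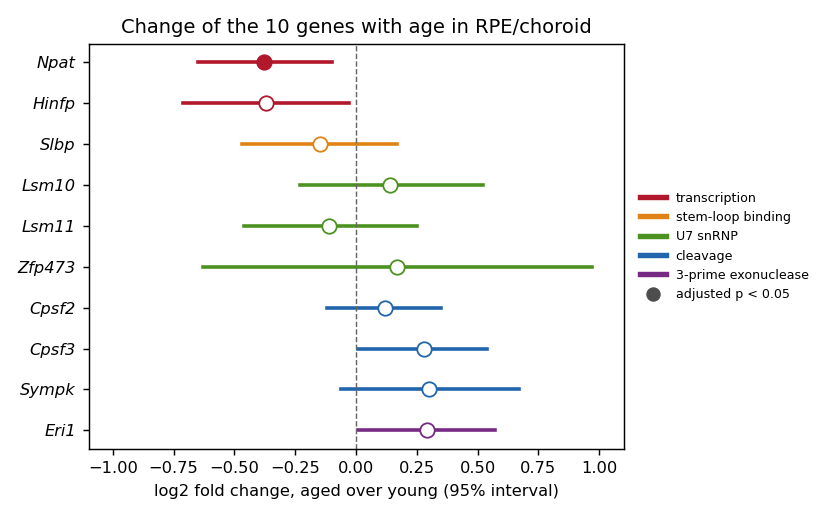
Log2 fold change of each gene, aged over young, from the authors' deposited table, with its 95% interval; colours give the role, and a filled point marks an adjusted p below 0.05. Npat at -0.38 is the filled point, and the intervals of 6 genes hold 0.

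Npat, the coactivator of histone gene transcription that marks histone locus bodies, lies at chr9:53537047-53574342 on the plus strand. Its mean normalized count was 848 over the 6 libraries. The mean and the deposited fold change, for groups of equal size, give worked-out values of 958 in young and 738 in aged tissue. Standard errors in the table were smaller at the lowest counts (median 0.24 in 5064 genes with a mean under 2, against 0.43 in 3300 tested genes with a mean under 30), which is the pattern of fold changes shrunken towards 0. Worked-out values from shrunken fold changes lie closer together than the group means, most of all in low genes such as Zfp473. All of those given here are taken as approximations in this sense. Npat fell by 0.38 on the log2 scale (SE 0.14, 95% interval -0.65 to -0.10, adjusted p = 0.0400 by the deposited DESeq2 test). The deposited fold change is a decrease to 0.77 of the young level. At its standard error a change of 0.36 was needed for a call, so Npat stood just past the threshold. With no filter on low genes the adjusted p was 0.0561 and the call was lost, as it was when the changes were centred on the median of the cleavage and polyadenylation list (-0.21, adjusted p = 0.265), a list that holds genes that fell and is no neutral reference. Npat was called among genes with a mean of at least 100 (adjusted p = 0.0372) and when centred on the median of those genes (-0.44, adjusted p = 0.0126).

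Hinfp, a zinc finger factor that binds histone H4 promoters, lies at chr9:44292440-44305671 on the minus strand. Its estimate was of the same size, -0.37 (SE 0.17, 95% interval -0.71 to -0.03, adjusted p = 0.111), from worked-out values of 255 in young and 197 in aged tissue. A change of 0.44 was needed for a call at its standard error. Hinfp was therefore not called, and its interval runs from close to 0 to a loss larger than that of Npat's estimate. Whether the estimates of Npat and Hinfp differ was not tested, since the table gives no covariance between genes.

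The start of Npat is 307 bases from that of Atm, the DNA damage kinase gene, which runs the other way. Atm stood at 0.02 on the log2 scale (SE 0.18, 95% interval -0.33 to 0.38, adjusted p = 0.947) at a mean of 1813. The 250 bases upstream of the Npat start, are printed for that reason from RefSeq on GRCm38.p6, and 56 further bases lie between them and the Atm start.
Npat (chr9:53536797-53537046, plus strand): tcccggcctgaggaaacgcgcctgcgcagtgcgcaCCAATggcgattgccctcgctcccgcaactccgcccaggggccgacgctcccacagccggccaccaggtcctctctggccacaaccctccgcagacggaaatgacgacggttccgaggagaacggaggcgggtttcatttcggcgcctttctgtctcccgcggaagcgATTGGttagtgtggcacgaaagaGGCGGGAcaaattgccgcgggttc
The capitals mark CCAAT, or ATTGG on the other strand, and TCCCGCC, the core of an E2F site, here as GGCGGGA. They start 215, 47 and 24 bases upstream, and do not overlap. Both motifs were picked after the promoters of Npat and Slbp had been seen. In windows of 250 bases before to 50 after the start, TCCCGCC on either strand was in 11.3% of 32851 promoters, and in Lsm11, Npat, Slbp and Zfp473 among the 8 genes with a promoter sequence. CCAAT was in 37.4% of promoters, and in Lsm10, Npat, Slbp and Zfp473. A match of letters is a description and not a site.

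Slbp, the stem-loop binding protein that follows histone mRNA from processing to translation, lies at chr5:33634952-33652574 on the minus strand. Its worked-out values were 665 in young and 601 in aged tissue. The log2 fold change was -0.15 (SE 0.16, 95% interval -0.47 to 0.17, adjusted p = 0.574). Centred on the cleavage and polyadenylation list the estimate turned to 0.018.

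Lsm10 and Lsm11, the ring proteins particular to U7, had estimates of opposite sign and neither was called. Lsm10 (chr4:126096623-126098584, plus strand) had worked-out values of 151 and 167, which is 0.14 on the log2 scale (SE 0.19, 95% interval -0.23 to 0.52, adjusted p = 0.653). Lsm11 (chr11:45928269-45944935, minus strand) had worked-out values of 275 and 255 with a log2 change of -0.11 (SE 0.18, 95% interval -0.46 to 0.25, adjusted p = 0.732), which turned to 0.058 when centred on the cleavage and polyadenylation list.

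Zfp473, the zinc finger protein that associates with the U7 particle, lies at chr7:44731480-44751050 on the minus strand. It was the lowest of the 10, with a mean of 17.2 and worked-out values of 16.2 and 18.2. Its log2 fold change was 0.17 (SE 0.41, 95% interval -0.63 to 0.97, adjusted p = 0.823). A change of 1.04 on the deposited log2 scale, about a doubling, was needed for a call. If the fold changes are shrunken, the change before shrinkage would be larger.

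The cleavage core had positive estimates in all 3 of its genes, none of them called. Cpsf3, the endonuclease, lies at chr12:21285391-21315056 on the plus strand. Its worked-out values were 876 in young and 1060 in aged tissue, for a log2 fold change of 0.28 (SE 0.14, 95% interval 0.01 to 0.54, unadjusted p = 0.0441, adjusted p = 0.141 by the deposited DESeq2 test). A change of 0.35 was needed for a call.

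Cpsf2, the catalytically inactive partner of Cpsf3, lies at chr12:101975988-102006424 on the plus strand. Its worked-out values were 1209 and 1310 and its log2 fold change was 0.12 (SE 0.12, 95% interval -0.12 to 0.35, adjusted p = 0.538), with the lowest standard error of the 10 genes. Sympk, the scaffold of the core, lies at chr7:19024377-19054618 on the plus strand. Its worked-out values were 1275 and 1571 and its log2 fold change was 0.30 (SE 0.19, 95% interval -0.06 to 0.67, adjusted p = 0.255). Sympk had the largest positive estimate and, for a gene with so many counts, a wide interval.

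Eri1, the 3-prime exonuclease that trims histone mRNA ends and takes part in their decay, lies at chr8:35465253-35496196 on the minus strand. Its worked-out values were 494 in young and 603 in aged tissue. The log2 fold change was 0.29 (SE 0.14, 95% interval 0.01 to 0.57, unadjusted p = 0.0415, adjusted p = 0.135 by the deposited DESeq2 test), close to that of Cpsf3. A change of 0.36 was needed for a call. Centred on the cleavage and polyadenylation list, Cpsf3 at 0.44, Sympk at 0.47 and Eri1 at 0.45 were called higher (adjusted p = 0.00740, 0.0439 and 0.00772). That centre raises every gene alike, and with it 29.3% of all genes were called, 23.0% higher and 6.27% lower, so 3 of 10 is near the share of all genes.

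**Figure D2:**
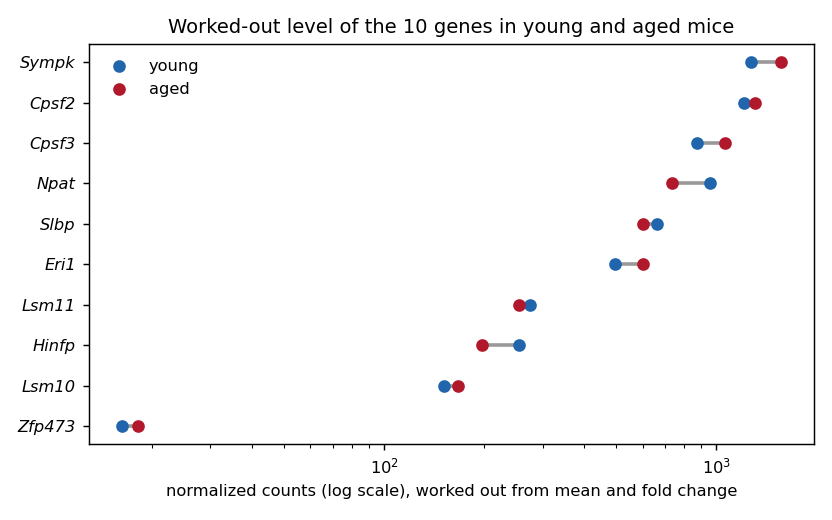
Normalized counts of each gene in young (blue) and aged (red) tissue on a log axis, worked out from the deposited mean and fold change; there are no error bars because the table analysed here gives no library values, and the points are approximations. The young point is to the right for Npat, Hinfp, Slbp and Lsm11, and the aged point is to the right for the other genes.

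Seen across the genes, 3 of the 10 intervals lay within 0.5 of no change on the deposited log2 scale, which may be shrunken, and all 10 lay within 1. The interval reached -0.5 or below for 3 genes and 0.5 or above for 5. The standard error was between 0.12 and 0.19 in 9 genes and 0.41 in Zfp473.

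**Figure D3:**
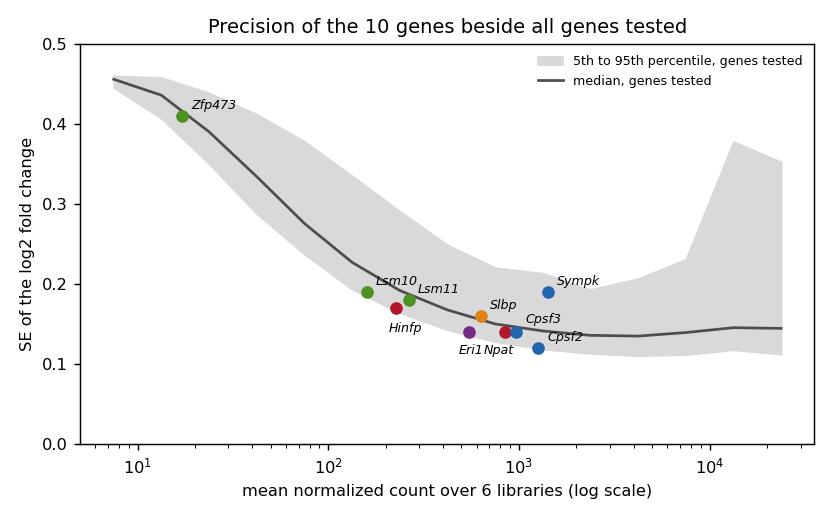
Standard error of the log2 fold change against the mean normalized count (log axis) for the 10 genes, beside the median and the 5th to 95th percentile of all genes tested in bins of mean. Zfp473 has the highest standard error, 0.41, and Cpsf2 the lowest, 0.12.

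Without division by length, the highest mean, that of Sympk, was 82.6 times the lowest, that of Zfp473. The authors made their normalized counts from TPM values, which are already per length, and whether the length term was kept is not stated. Levels are therefore given both ways. Divided by the longest coding transcript in GENCODE M21, the mean was 387 normalized counts per kb for Cpsf3, 346 for Sympk, 332 for Slbp, 220 for Cpsf2, 168 for Lsm10, 140 for Npat and 108 for Eri1. It was 42.4 for Hinfp, 41.1 for Lsm11 and 1.87 for Zfp473. The order depends on the length: with the median coding transcript, Sympk was at 1721, Cpsf3 at 1122, Eri1 at 825 and Hinfp at 157, while Npat, Cpsf2 and Lsm11 each have 1 coding transcript. The ratio of the highest to the lowest level was 208 with the longest and 356 with the median transcript. If the length term was kept, this division counts length a second time. No differences between neighbours in this order can be tested without library values.

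Genes that lie beside or over a member were looked up. There were 8 such neighbours of 7 genes, of which 4 were in the table, 3 were tested and 0 were called. Besides Atm, Itgb1bp1, which overlaps Cpsf3 on the other strand, stood at 0.24 on the log2 scale (SE 0.15, adjusted p = 0.275). Vrk3, which overlaps Zfp473 on the other strand, had 0.18 (SE 0.16, adjusted p = 0.470). Foxa3, whose start is 839 bases from that of Sympk, had a mean of 0.306 and was not tested. The kit marks strand, but the strand option used in quantification is not given in the sources used here, so reads of overlapping pairs may have been shared. The other neighbours were not in the table.

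Around the 10 genes, 88 genes of 11 lists were tested, covering the factors that act with them. Of these, 7 were lower and 0 higher, or 7.95% called against 21.2% of all genes. Relative to the median of the cleavage and polyadenylation list this became 2 lower, Cdk2 and Cpsf6, and 14 higher. That centre moves every gene up, and the split of all genes called went with it from 1849 lower and 2100 higher to 1169 lower and 4287 higher. The median of all abundant genes, with a mean of at least 100, is 0.06 on the log2 scale, and the cleavage list's is -0.17.

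Among 10 further genes of histone gene transcription, 2 fell and 0 rose, with a list median of 0.06. As 21.2% of all genes tested were called, 2 of 10 is near the share of all genes. Ccne2, a cyclin that activates Cdk2, fell by 0.69 (SE 0.24, adjusted p = 0.0244 in the deposited DESeq2 test). Cdk2, the kinase that phosphorylates Npat, fell by 0.61 (SE 0.12, adjusted p = 4.86e-06 in the deposited DESeq2 test) from a worked-out 1579 to 1034. Casp8ap2, a histone locus body component also called Flash, stood at 0.04 (SE 0.12, adjusted p = 0.858).

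For the Sm proteins of the U7 ring that are shared with the spliceosome, 0 of 5 were called and 0 had an unadjusted p under 0.05 in the deposited DESeq2 comparison, with a median of -0.02. Snrpe had the lowest p of them, with 0.31 (SE 0.16, adjusted p = 0.165). The 2 Sm proteins that U7 lacks, Snrpd1 and Snrpd2, were at 0.27 to 0.31 and were not called, again with 0 at an unadjusted p under 0.05. In the Sm ring assembly list 0 of 10 tested genes were called and 0 had an unadjusted p under 0.05 by DESeq2. Gemin8 was at -0.58 (SE 0.30, adjusted p = 0.154) and Gemin5 at 0.22 (SE 0.13, adjusted p = 0.249).

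A row with the symbol U7 fell by 1.05 on the log2 scale (SE 0.41, 95% interval -1.85 to -0.25, adjusted p = 0.0469 in the deposited DESeq2 test), at a mean of 25.3. The call was lost with no filter on low genes (adjusted p = 0.0658) and with the cleavage centre (-0.89, adjusted p = 0.0849). This symbol names no gene of the GENCODE annotation, and Rnu7 is no symbol of the table. The row can therefore not be tied to the Rnu7 sequence printed above, nor to a single locus.

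The cleavage and polyadenylation list holds factors that act on mRNAs with a poly(A) tail. Cpsf2, Cpsf3 and Sympk, which act in both kinds of processing, were kept out of it. Of its 18 genes 3 fell and 0 rose, where 9.92% of all genes tested were called lower and 11.3% higher. By direction 15 were lower, against 50.5% of all genes tested, and the median was -0.17. Cpsf6, part of the cleavage factor that chooses sites, fell by 0.73 (SE 0.20, adjusted p = 0.00275). Pabpn1, the nuclear poly(A) binding protein, fell by 0.53 (SE 0.17, adjusted p = 0.0153). Rbbp6, a ubiquitin ligase of the same machinery, fell by 0.40 (SE 0.14, adjusted p = 0.0243). Cpsf2, Cpsf3 and Sympk had positive estimates, and their difference from this list was not tested.

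**Figure D4:**
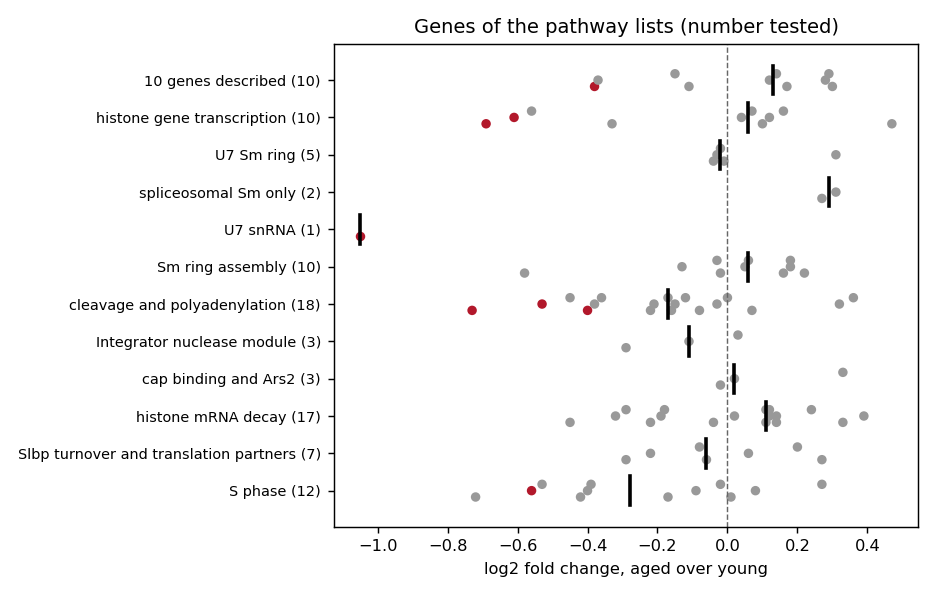
Log2 fold changes of the tested genes in each list, aged over young, with the number tested in parentheses; each dot is a gene, red where the adjusted p is below 0.05, and the black bar is the list median. The 3 red dots of the cleavage and polyadenylation list lie at -0.73, -0.53 and -0.40.

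The Integrator nuclease module, which cleaves small nuclear RNA precursors with a relative of Cpsf3, had 0 of 3 genes called and 0 at an unadjusted p under 0.05, with Ints9 at -0.29 (SE 0.22, adjusted p = 0.369). The cap binding list, whose complex promotes histone mRNA processing, had 0 of 3 called and 1 higher at an unadjusted p under 0.05 by DESeq2, Ncbp2 at 0.33 (SE 0.14, adjusted p = 0.0759). Histone mRNA decay had 0 of 17 called, with 1 lower and 1 higher at an unadjusted p under 0.05, which 32.6% of all genes passed. These were Zcchc11, a uridylyltransferase that tails histone mRNA, at -0.45 (SE 0.18, adjusted p = 0.0537) and Upf1, the helicase recruited to the stem-loop, at 0.39 (SE 0.17, adjusted p = 0.0905). Of the 7 Slbp turnover and translation partners 0 were called and 1 was higher at an unadjusted p under 0.05, Dcaf11 at 0.27 (SE 0.13, adjusted p = 0.108).

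In the S phase list 1 of 12 genes fell, Top2a, a topoisomerase of dividing cells, by 0.56 (SE 0.19, adjusted p = 0.0187), and 6 were lower and 1 higher at an unadjusted p under 0.05 by DESeq2, against 16.1% lower and 16.5% higher among all genes. Cell type markers moved with age in the same tissue, where 21.2% of all genes tested were called. Of 7 macrophage markers tested 6 rose, with a median of 1.95 and a range of 0.15 to 3.37. Of 5 fibroblast matrix markers 3 fell and 1 rose, with a median of -1.80. Of 6 RPE markers 2 rose, with a median of 0.34, and Rpe65, which marks the RPE, had a mean of 43745 and was not called, while 1 of 6 endothelial markers fell. Of 6 rod markers 0 were called and 0 had an unadjusted p under 0.05 by DESeq2. Sums of these markers per library cannot be given, and their part in the change of Npat was not tested.

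Among the histone genes themselves, 42 with a stem-loop in an annotated transcript were tested, of which 12 fell and 0 rose, with a median log2 fold change of -0.51, where 9.92% of all genes tested were lower and 11.3% higher. Of 16 without one 5 fell and 1 rose, with a median of -0.74. A missing stem-loop may mean only that the annotated transcript ends early, so the groups were not compared. Of the 46 stem-loops, 23 ended within 100 bases of the transcript end, and the 5 printed are not among these. The 5 genes whose stem-loops are printed were not called: Hist1h1c at -0.06, Hist3h2a at 0.22, Hist1h2be at -0.19, Hist1h3f at -0.26 and Hist1h4c at -0.13.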

How the data were processed

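RNA was measured in 3 young and 3 aged RPE/choroid samples, mapped by the authors with STAR to GRCm38 transcripts and quantified with Sailfish as TPM, transformed to normalized counts and compared with DESeq2. The deposited baseMean is a signal, the authors' normalized count averaged over all 6 libraries. The deposited fold changes and standard errors are on the log2 scale, the deposited Wald statistic is a score, and the p-values, raw and adjusted, were likewise deposited. Standard errors fell at the lowest counts and were at most 0.46, the pattern of shrunken fold changes, although no source used here names that step. These columns are the authors' own comparison, and no count per library was at hand, so no test was refitted and those deposited values are described. Recomputed p-values and adjusted p-values matched the deposited ones to within 0.449% and 0.572%. Depth per library is unknown here.

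The sign was reversed, so that positive means higher in aged tissue. Worked-out group values were computed from the mean and fold change for equal groups, and are approximations that shrinkage, if applied, draws together. Intervals are 95% normal intervals around the deposited fold changes, which may be shrunken. The 10 genes and the lists were chosen with earlier results of these data known. Named genes were the 10 genes, the genes called in each pathway list, at most 2 with the lowest p in a pathway list with none, Casp8ap2, U7 and neighbours that overlap or start within 1000 bases. Marker lists were outside this rule and are given by counts, and Rpe65 was named after its values were seen, as a check of the tissue. Annotation was GENCODE M21 (GRCm38) and promoters RefSeq GRCm38.p6. Scripts used pandas and scipy, and the recomputation of the adjusted p was tested on simulated data. Protein features were not analysed here.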

Additional observations from a re-analysis of the deposited data

How the results depend on the processing

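The count of the 10 genes called, 1 in the deposited adjustment, was 0 with no filter on low genes (Npat adjusted p = 0.0561), 0 at an adjusted p under 0.01 and 0 with a log2 fold change of at least 0.5 in size. Of all 18636 genes tested, 3949 were called in the deposited adjustment, 2520 at an adjusted p under 0.01 and 3177 with the size limit. With no filter 3581 of 26521 genes with a p-value were called, and 2918 of 12716 with a mean of at least 100. The count of the 10 genes stayed at 1 with genes of a mean of at least 100 and with changes centred on those genes, whose median is 0.06. Centred on the cleavage and polyadenylation list, at -0.17, the count was 3, all higher (Cpsf3, Sympk and Eri1), Npat was at -0.21 (adjusted p = 0.265), Slbp turned to 0.018 and Lsm11 to 0.058. That list holds 3 genes that fell, so its centre is not a neutral reference. The pathway count of 7 was 6 with no filter on low genes, without U7 (adjusted p = 0.0658), and became 2 at an adjusted p under 0.01, 11 centred on abundant genes and 16 centred on the cleavage list. That centre raises every gene by the same amount. The split of all genes called, 1849 lower and 2100 higher, became 2289 and 1650 with the abundant centre and 1169 and 4287 with the cleavage centre. Over the single genes and alternatives, 50 values kept direction and side of the threshold, 4 lost the call, 3 gained it and 2 turned. With an adjusted p under 0.01 or a minimum size, a gene not called could not change, so part of the 50 was fixed in advance. The ratio of member levels of 208 became 356 with the median transcript and 82.6 with no division by length, an alternative chosen after seeing the data.

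No paired analysis was possible because single libraries have no values in the file. Leaving out a library and other normalizations or pseudocounts were not run either.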
